A study of Sus scrofa with 64 samples.

Results

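Chemokines, interleukins and the tumour necrosis factor (TNF) family, with their receptors, were followed across 16 tissues of the pig. The members were all probe sets (here called probes) whose gene symbol in the platform annotation began with CCL, CCR, CXCL, CXCR or IL and a digit, or with TNF. The rule used the symbol alone. It gave 85 of the 23935 probes of the array, of which 83 carried a single symbol and stood for 70 of the 6765 genes named by such probes. The remaining 2 probes were annotated to several genes, and they were counted but not described by name. There were 12 probes for CC chemokines, 10 for CXC chemokines, 7 for chemokine receptors, 23 for interleukins, 16 for interleukin receptors, 5 for TNF ligands, 6 for TNF receptors and 6 for TNF-induced proteins. For 12 genes with several probes the brightest probe is described under the gene's name, and any other is named as probe 2 or probe 3.

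Total RNA of 4 pigs was hybridised to 64 Affymetrix GeneChip Porcine arrays, 1 for each tissue of each animal. The animals were a Large White male (38.8 kg) and a Large White female (36.2 kg) of 87 days and an Iberian female (32.8 kg) and an Iberian male (25.4 kg) of 89 days. They were housed together and fed the same diets, and their tissues were snap frozen. They came from 2 breeding companies. Each breed by sex combination was thus a single animal, and breed could not be told apart from the 2 days of age or from weight. Values are log2 signals after robust multi-array average (RMA) normalization, and every set of 4 values below runs in the order Large White male, Large White female, Iberian female, Iberian male. A tissue was compared with the mean of the other 15 tissues in a linear model with tissue, breed and sex, and p-values were adjusted over all 23935 probes. These p-values rest on 1 estimate of the spread per probe, pooled over all tissues, with the arrays of an animal treated as independent. They therefore do not show the spread over the 4 animals in the tissue named, and the number of arrays limits their precision. A member was counted as higher or lower when its adjusted p was under 0.05 and the difference was at least 1 log2 unit, and the share of all probes past the same rule is given beside each count.

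Chemokines are small secreted proteins that attract leukocytes through G protein-coupled receptors. Some are made constantly by stroma, epithelium and lymphoid organs and place resting lymphocytes, while others appear in inflammation. Interleukins and TNF ligands carry signals between leukocytes and from leukocytes to other cells, and their receptors decide which cells can answer. In whole tissue, fewer cells of a type and less RNA per cell cannot be told apart.

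The tissue labels were checked with 24 label genes that had a probe, and 21 of these were highest in a tissue they mark. AVP and OXT, listed for the hypothalamus, were highest in the neurohypophysis, which stores their hormones, and CALB2, listed for the olfactory bulb, was highest in the hypothalamus. POMC, a hormone precursor of the anterior and intermediate pituitary, was highest on the neurohypophysis arrays too, whereas PRL and GH1 were highest in adenohypophysis. Array medians lay between 5.38 and 5.52. A set of 64 control probes, called reporter controls from their identifiers, was higher on the blood arrays than elsewhere in 64 of 64 cases, by a median of 0.50 and at most 1.68. The same controls were higher in 62 of 64 cases in biceps femoris, with a median of 0.40. In ileum 7 of 64 were higher, by at most 0.06. Over all probes, 3 arrays were least like the other arrays of their tissue, with correlations of 0.907 in biceps femoris of the Iberian female, 0.937 in pineal gland of the Large White male and 0.967 in stomach of the Iberian female.

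All 85 members varied between tissues in the model's F-test, as did 98.2% of all probes. The median range between the highest and the lowest tissue was 2.71 log2 units for the members and 1.74 for all probes. The range was over 4 for 28 members, which is 12.84% among all probes, and under 1 for 2 members against 16.73% of all probes. Blood was the highest tissue for 36 members (42.4%, against 27.4% of all probes) and ileum for 22 (25.9%, against 8.3%). Liver followed with 7, back fat with 4, and no member was highest in olfactory bulb, pineal gland, adenohypophysis or adrenal medulla. For 36 of 85 members (26.3% of all probes) some tissue had all 4 arrays above or all 4 below the other 60 arrays. They included 7 high in ileum (2.21% of all probes), 19 high in blood (8.43%) and 4 low in blood (5.03%). The heat map of tissue means shows these columns.

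**Figure D1:**
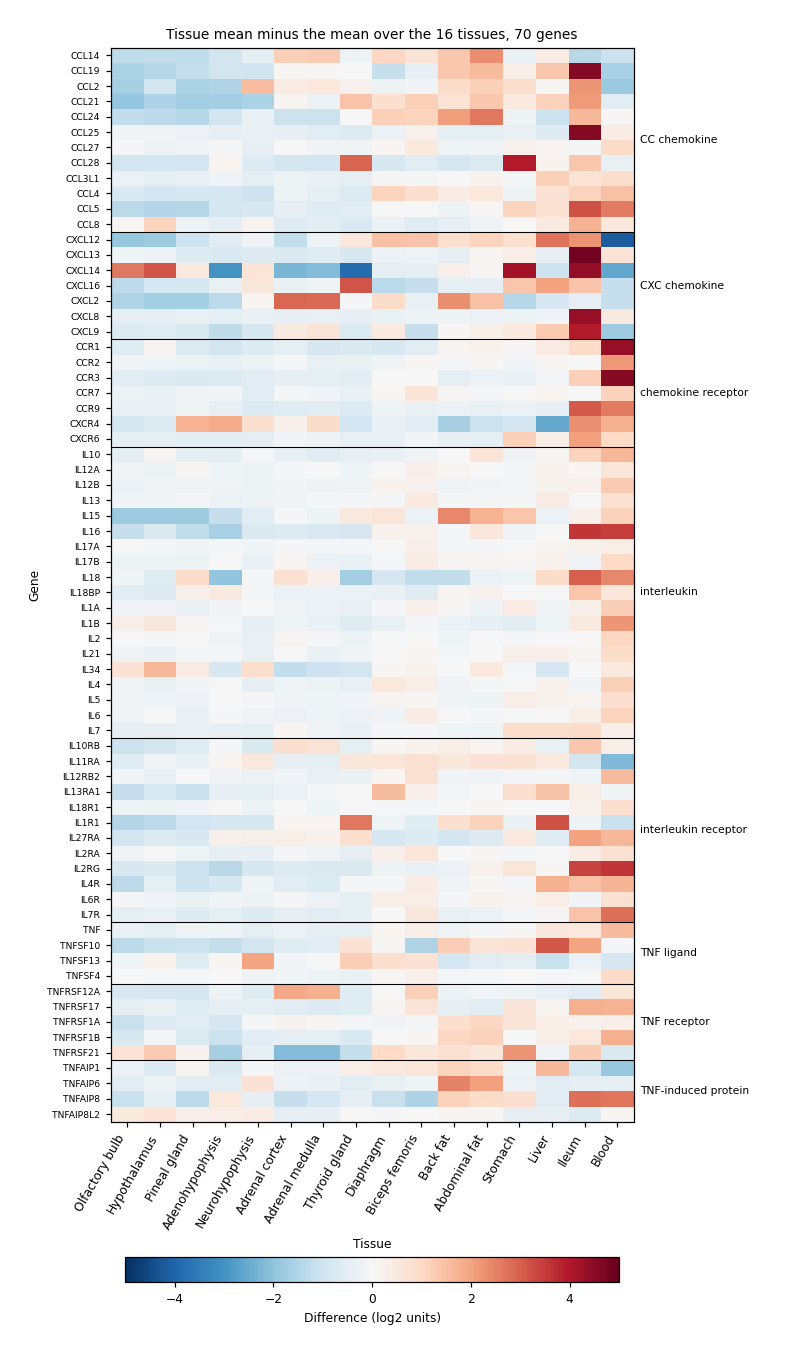
Mean signal of each tissue minus the mean over the 16 tissues (log2 units, colour), for the brightest probe of each of the 70 genes, ordered by role; each cell is a mean of 4 arrays. Chemokines stand out in the ileum column, chemokine receptors and interleukins in the blood column, and most brain and pituitary cells lie below 0.

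Ileum, the last stretch of the small intestine and rich in lymphoid follicles, had 37 members higher (43.5% of members, 7.93% of all probes) and 3 lower (7.34% of all probes lower). The higher members were mainly ligands: 9 of 12 CC chemokine probes and 9 of 10 CXC chemokine probes. They were joined by 5 of 7 chemokine receptors, 4 of 23 interleukin probes, 5 of 16 interleukin receptor probes and 5 of 17 probes of the TNF groups. The median difference of the members was 0.51, and that of all probes was -0.09. Leaving out the blood arrays, an alternative added after the data were seen, gave 38 members higher and 5 lower.

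CCL19, a ligand of CCR7 that draws lymphocytes and dendritic cells into lymphoid tissue, read 11.17, 10.89, 11.39 and 10.98 in ileum and 4.48 to 8.94 on the other 60 arrays. No array of another tissue reached the ileum values. The difference was 4.91 ± 0.188 (SE, adjusted p = 1.8e-28), 3.04 above the next tissue, abdominal fat. CCL21, the other CCR7 ligand, was also highest in ileum, at 8.83, 7.91, 7.87 and 8.07, and overlapped with arrays of other tissues that reached 8.53.

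CCL25, which small intestinal epithelium makes and which draws CCR9-bearing lymphocytes to the gut, read 9.76, 8.37, 8.49 and 10.17. The other 60 arrays lay between 3.76 and 5.27, so that no overlap existed and the gap was 3.10. The difference was 4.89 ± 0.151 (SE, adjusted p = 1.3e-32). Its receptor CCR9 read 7.31, 7.07, 8.17 and 7.96 in ileum and 7.72, 7.24, 7.21 and 6.49 in blood, and its mean in the other 14 tissues lay between 3.89 and 4.41. CCR9 thus marked 2 tissues and its ligand a single one.

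CXCL13, the chemokine of B cell follicles, read 10.16, 10.89, 9.59 and 9.0 in ileum, against 4.06 to 7.06 elsewhere, a difference of 5.14 ± 0.224 (SE, adjusted p = 4.4e-26). Its probe 2 gave a difference of 5.90. CXCL8, an attractant of neutrophils, read 6.90, 7.66, 6.44 and 8.09 and stayed between 2.28 and 4.0 on all other arrays (difference 4.63 ± 0.125, SE, adjusted p = 3.1e-35). CXCL9, which interferon gamma induces and which attracts activated T cells, read 10.42, 10.31, 10.13 and 10.46 in ileum. Its other arrays spread from 3.67 to 9.96, and the highest of them, the hypothalamus of the Iberian male, came within 0.18 of the ileum. The difference was 4.22 ± 0.488 (SE, adjusted p = 1.6e-10).

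**Figure D2:**
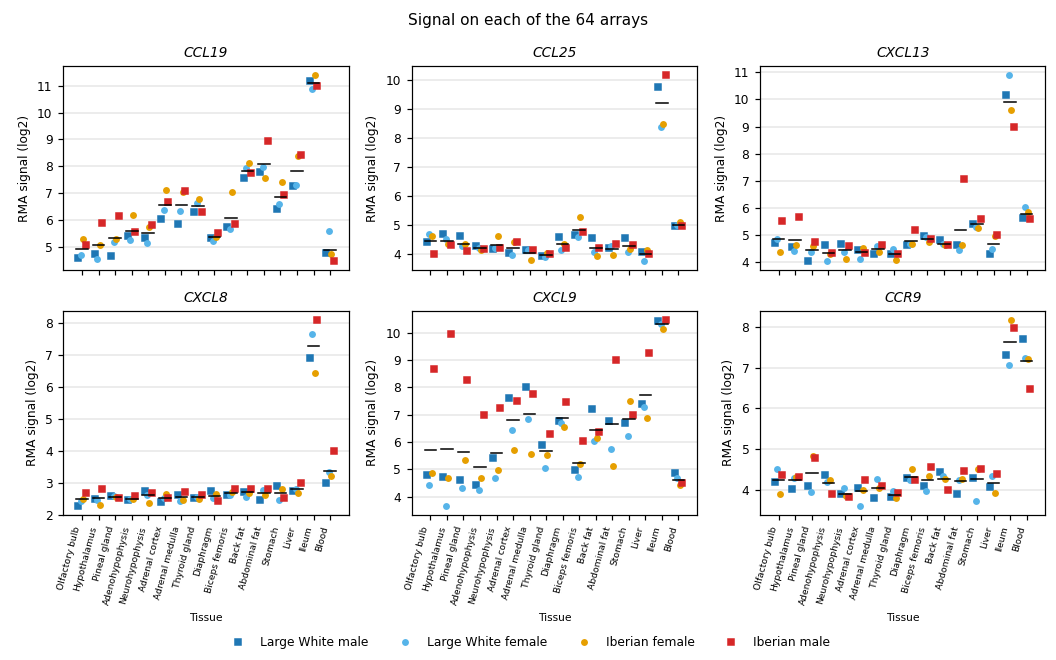
RMA signal (log2) of 6 genes on each of the 64 arrays, by tissue; symbols give the animal and the bar the mean of 4 arrays. CCL19, CCL25, CXCL13 and CXCL8 are separated from all other tissues in ileum by at least 1.94 log2 units, CCR9 is high in ileum and blood, and CXCL9 of the Iberian male is high in several tissues.

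CXCL14, a chemokine that many epithelia make constantly, was shared by stomach and ileum. It read 11.33, 11.64, 11.60 and 10.96 in ileum and 11.31, 10.83, 11.34 and 11.12 in stomach, and the 2 tissues overlapped (difference -0.23 ± 0.537, SE, adjusted p = 0.779, which leaves room for a difference in either direction). The gene then fell by steps to 3.17 in thyroid gland, the widest range of any member at 8.21 log2 units. Among the other ligands, CCL5, a T cell attractant, read 10.26, 9.93, 9.95 and 11.05 in ileum and 9.47, 9.61, 9.68 and 10.07 in blood. CCL2, which attracts monocytes through CCR2, read 8.77, 9.16, 8.74 and 9.48 in ileum and 4.94, 4.93, 4.97 and 5.09 in blood. The first was therefore high in both tissues and the second was high in ileum but low in blood.

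Non-chemokine members with high ileum values included IL18BP, the soluble protein that neutralises IL-18, at 8.28, 7.73, 8.36 and 8.37 against at most 7.60 elsewhere (difference 1.49 ± 0.128, SE, adjusted p = 1.3e-14). IL18 itself read 9.19, 9.29, 9.25 and 9.27 and overlapped with blood. TNFRSF17, the plasma cell receptor BCMA, read 5.56, 5.91, 5.51 and 5.69 in ileum and 5.41, 5.69, 5.58 and 5.72 in blood. The named member lower in ileum by the largest amount was CCL14, a chemokine found in plasma, by -1.46 ± 0.224 (SE, adjusted p = 2.1e-07).

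Blood had 37 members higher (43.5%, against 15.1% of all probes) and 15 lower (17.6%, against 17.3%). All 7 chemokine receptors, 14 of 23 interleukin probes, 7 of 16 interleukin receptor probes and 3 of 5 TNF ligand probes were higher, whereas 2 of 12 CC and 0 of 10 CXC chemokine probes were. Of the CXC probes 7 of 10 were lower, among them those for CXCL12, CXCL14, CXCL16, CXCL2 and CXCL9. Because the reporter controls were also higher on these arrays, the members were counted again with a difference larger than that of every reporter control, a rule added after the data were seen. This left 20 members (23.5%, against 3.52% of all probes), and the part of the reporter shift in the other 17 was not tested. The 20 comprised CCL5, CCR1, CCR2, CCR3, CCR9, CXCR4, IL1B, IL10, IL16, IL18, IL2RG, IL4R, IL7R, IL12RB2, IL27RA, TNF, TNFAIP8, TNFAIP8L2 (probe 2), TNFRSF17 and TNFRSF1B.

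**Figure D3:**
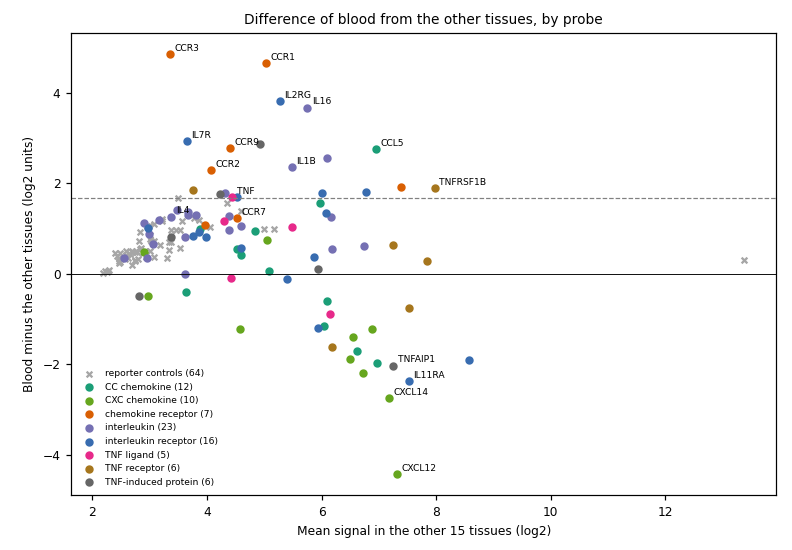
Blood minus the other 15 tissues (log2 units, vertical) against the mean signal in the other 15 tissues (log2, horizontal) for the 85 members, coloured by role, and the 64 reporter controls (grey crosses). The dashed line is the highest reporter difference, 1.68; 5 of the 7 chemokine receptors lie above it, CCR7 and CXCR6 lie below it, and CXCL12 lies lowest at -4.42.

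CCR3, the eotaxin receptor of eosinophils, read 8.74, 7.23, 8.09 and 8.74 in blood and at most 5.28 elsewhere (difference 4.85 ± 0.154, SE, adjusted p = 1.5e-32). CCR1, a receptor of monocytes and neutrophils, read 9.70, 9.75, 9.99 and 9.27 against at most 6.67 (difference 4.65 ± 0.134, SE, adjusted p = 2.8e-34). CCR2, the receptor of CCL2 on monocytes, read 6.40, 6.33, 6.45 and 6.27 against at most 4.56 (difference 2.30 ± 0.105, SE, adjusted p = 8.6e-26). In none of the 3 did an array of another tissue reach the blood values. CCR7, the receptor of naive lymphocytes, read 5.69, 5.82, 5.94 and 5.55 and lay 0.12 above the nearest other array, and its difference of 1.24 was within the range of the reporter controls.

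Among the interleukins and their receptors, IL2RG, the common gamma chain shared by several interleukin receptors, read 9.33, 8.64, 9.07 and 9.31 in blood (difference 3.82 ± 0.172, SE, adjusted p = 5.1e-26). IL16, a T cell attractant, read 9.42, 8.94, 9.48 and 9.84 (difference 3.67 ± 0.148, SE, adjusted p = 5.8e-28). Both overlapped with ileum (blood minus ileum 0.19 ± 0.235 and -0.14 ± 0.203, SE), and neither difference passed the test. IL7R, the receptor by which T cells receive IL-7, read 6.43, 6.29, 7.33 and 6.23 in blood against at most 5.75 elsewhere, and IL1B, a central signal of inflammation, read 7.68, 7.96, 7.95 and 7.77 against at most 6.75. These 2 genes separated blood from every other tissue.

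TNF read 6.37, 6.20, 6.06 and 5.92 in blood and at most 5.49 elsewhere (difference 1.70 ± 0.0985, SE, adjusted p = 1.8e-21), just past the highest reporter control. TNFRSF1B, the TNF receptor of leukocytes, was highest in blood at 10.25, 10.07, 9.72 and 9.42, and was lowest in adenohypophysis at 7.14, 7.13, 6.75 and 7.06. By contrast TNFRSF1A, the TNF receptor found on most cells, was highest in abdominal fat (mean 8.88) and lowest in olfactory bulb at 6.83, 6.73, 6.58 and 6.83, below all 60 other arrays.

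Several interleukins, IL2, IL4, IL5, IL6, IL12A, IL13, IL17A and IL21, were highest in blood without reaching past the reporter controls. Their differences in blood ranged from 0.34 for IL17A to 1.26 for IL4. Of the 27 members with a mean under 4 in the other tissues, 23 had a positive difference in blood and 3 passed every reporter control. Among all such dim probes 85.7% had a positive difference in blood, with a median of 0.53, and 3.2% passed every reporter control. For the dim members that did not pass the reporter controls, their own blood signal and the general rise of dim probes in blood cannot be told apart.

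The lowest member in blood was CXCL12, a stromal chemokine that retains CXCR4-bearing cells. It read 2.78, 2.95, 3.06 and 2.80 in blood and 4.31 to 9.98 on the other 60 arrays (difference -4.42 ± 0.270, SE, adjusted p = 1.3e-20), with no overlap. It was highest in liver, at 9.57, 9.66, 9.78 and 9.98, just above all other arrays. Both statements hold for the brightest probe only. CXCL12 (probe 2) was not set apart in blood and was highest in back fat (mean 8.23, and 7.81 in liver). IL11RA, the IL-11 receptor of stromal cells, read 5.11, 5.22, 5.49 and 4.81 in blood against 6.36 to 8.58 elsewhere (difference -2.37 ± 0.135, SE, adjusted p = 7.9e-22). TNFAIP1, a TNF-induced adaptor of protein degradation, was also below every other array, at 5.39, 5.69, 5.18 and 4.63.

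Setting blood directly against ileum, 19 members were higher in blood (16.3% of all probes) and 22 lower (17.2% of all probes), shares of 22.4% and 25.9%. The roles separated the directions. Lower in blood were 7 of 12 CC and 9 of 10 CXC chemokine probes, while 0 chemokine probes of either class were higher. Higher in blood were 4 of 7 chemokine receptors and 8 of 23 interleukin probes. The widest falls were those of CXCL14 (-6.96 ± 0.537, SE, adjusted p = 3.2e-16), CXCL12 (-6.40 ± 0.369, SE, adjusted p = 6.2e-21) and CCL19 (-6.21 ± 0.257, SE, adjusted p = 6.4e-27). Past every reporter control were 5 members (2.21% of all probes): CCR1 at 3.40, CCR3 at 3.34, CCR2 at 2.16, IL12RB2, a chain of the IL-12 receptor, at 1.79 and IL1B at 1.73. Their arrays in the 2 tissues did not overlap.

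Markers of T and NK cells and of B and plasma cells averaged highest in blood and ileum, while the other lists followed only in part. By adjusted p alone, the rule used for the lists, 43.5% of all probes were higher and 35% lower in blood, and 23.4% higher and 29.5% lower in ileum. The 19 probes of a T and NK cell list averaged 6.27 to 6.83 on the ileum arrays and 6.83 to 7.35 on the blood arrays, with means of 4.02 to 4.89 in the other 14 tissues. All 19 were higher in blood and 15 of 19 in ileum by adjusted p alone, led by CD3E at 4.87 and CD3G at 4.13. The 3 B and plasma cell probes averaged 9.69 in ileum, 7.80 in blood and 7.11 in stomach. Of 20 monocyte, macrophage and neutrophil probes 16 were higher and 3 lower in blood, with S100A9 of neutrophils at 6.22 and C1QC of tissue macrophages at -6.04. In ileum 8 were higher and 8 lower. That list averaged 6.24 in blood, 5.88 in liver, 5.62 in ileum and 5.60 in abdominal fat. The 15 endothelium probes averaged 4.79 in ileum and 5.18 in blood, against 6.17 to 6.33 in muscles and fats. The 5 gut epithelium probes were all higher in ileum, FABP6 by 10.12, and the 3 platelet probes were all higher in blood. The part of these cells in the values of the members was not tested.

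Other genes of the same pathways were counted from lists. Of 20 probes for further ligands and receptors 15 were higher and 1 lower in ileum by adjusted p alone, with LTB, a lymphotoxin subunit, at 4.36 and the co-stimulatory receptor CD40 at 2.98. In blood 16 were higher and 1 lower, with the platelet chemokine PPBP at 5.99 and the chemokine receptor CCRL2 at 4.73. Of 40 probes for signalling proteins downstream of these receptors 20 were higher and 2 lower in ileum, and 33 were higher and 0 lower in blood. CASP1, the protease that matures IL-1 and IL-18, was higher in both (3.14 and 3.06), JAK3, which couples to the common gamma chain, was higher in ileum by 2.20, and STAT4, which transmits the IL-12 signal, was higher in blood by 3.29.

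Stomach and ileum, the 2 digestive tissues, differed in 35 members, of which 31 were lower in stomach (36.5%, against 6.93% of all probes) and 4 higher (5.92% of all probes). CCL25 was lower by 4.94 and CXCL8 by 4.61 on the log2 scale in stomach. The 4 higher members included CCL28, a mucosal chemokine, which read 7.99, 6.70, 7.70 and 7.84 in stomach and 4.76, 5.27, 4.09 and 5.68 in ileum, without overlap (difference 2.61 ± 0.221, SE, adjusted p = 2.2e-14). The others were CCL14, IL15 and IL11RA. Against all other tissues, stomach had 8 members higher (5.17% of all probes) and 2 lower (4.33%). Among the 8 was TNFRSF21, the death receptor DR6, at 9.46, 9.13, 10.31 and 9.80, above every array of another tissue.

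Thyroid gland had 5 members higher (6.59% of all probes) and 5 lower (4.5%). CXCL16, a membrane-bound chemokine and ligand of CXCR6, read 10.15, 10.16, 9.57 and 9.93 and exceeded every other array (difference 3.35, adjusted p = 8.0e-21). CCL28 was second highest in thyroid gland after stomach, at 7.04, 5.93, 6.37 and 6.69. IL1R1, the signalling receptor of IL-1, read 8.38, 8.23, 8.71 and 8.62 in thyroid gland and 9.13, 9.09, 9.26 and 8.70 in liver. In liver 12 members were higher (7.72% of all probes) and 6 lower (8.26%). TNFSF10, the apoptosis ligand TRAIL, was among the higher at 6.67, 6.46, 8.38 and 8.50, with both Iberian animals above both Large White animals. CXCR4, the receptor of CXCL12, was lowest in liver at 5.63, 5.26, 4.64 and 4.35 (difference -2.71 ± 0.251, SE, adjusted p = 1.3e-13). Liver was also the tissue where the brightest CXCL12 probe was highest. In ileum, where CXCR4 was highest (mean 9.81), CXCL12 was high too (mean 9.29).

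In the adrenal gland, TNFRSF12A, the receptor of the cytokine TWEAK, read 9.32, 9.14, 9.47 and 8.72 in adrenal cortex and 8.80, 9.26, 9.34 and 8.79 in adrenal medulla. CXCL2, a neutrophil attractant, read 7.69, 8.07, 7.01 and 6.80 in cortex and 7.09, 8.13, 7.44 and 6.69 in medulla. The ranges of both genes overlapped, and 0 members differed between the 2 parts (0.765% of all probes higher and 0% lower in medulla) by limma, also by the adjusted p alone (0.999% and 0.00418%), and 3 did at an unadjusted p under 0.05, namely CXCL12, IL21 and IL17B. CXCL12 read 6.38, 6.39, 7.44 and 6.92 in medulla and 6.04, 5.08, 6.06 and 6.07 in cortex, without overlap (difference 0.97 ± 0.369, SE, adjusted p = 0.4823), and IL6R did not overlap either (-0.21, adjusted p = 1). CXCL12, IL21, IL17B and IL6R were picked after their values were seen. Cortex had 4 members higher (5.05%) and 8 lower (4.5%) than the other tissues, medulla 4 higher (5.03%) and 6 lower (3.37%).

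**Figure D4:**
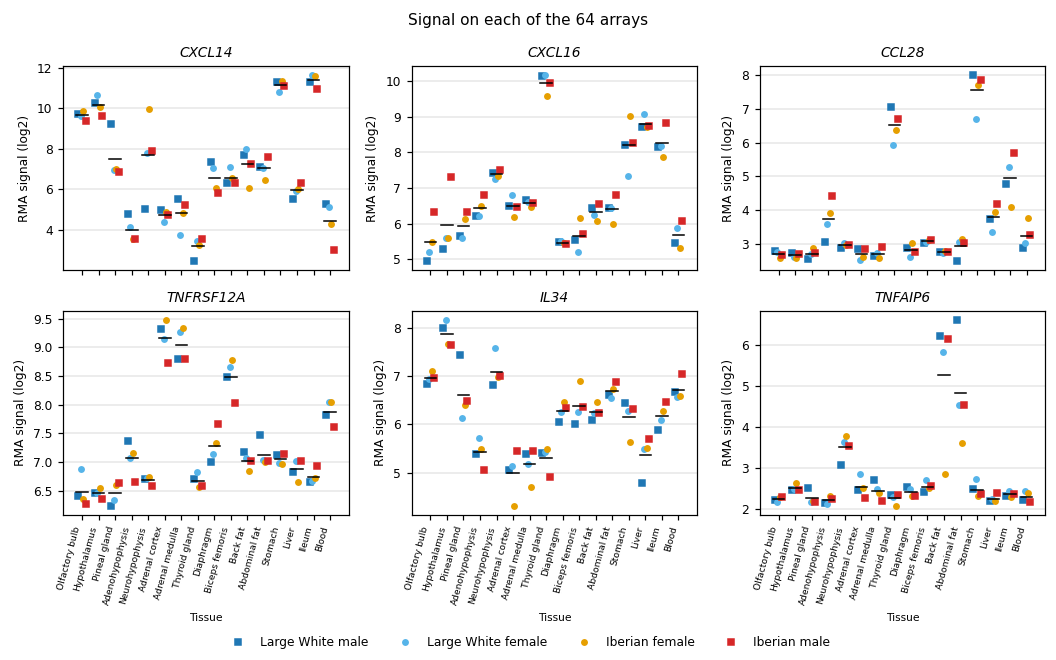
RMA signal (log2) of 6 genes on each of the 64 arrays, by tissue; symbols give the animal and the bar the mean of 4 arrays. CXCL14 is high in stomach, ileum, hypothalamus and olfactory bulb, CXCL16 in thyroid gland, CCL28 in stomach and thyroid gland, TNFRSF12A in adrenal gland and biceps femoris, IL34 in hypothalamus and TNFAIP6 in both fats, where the arrays are spread widely.

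In the fat depots no member was set apart from all other tissues by its 4 arrays. Abdominal fat had 16 members higher (5.84% of all probes) and 1 lower (3.96%), and back fat 13 higher (6.14%) and 3 lower (4.57%). CCL24, an eotaxin and ligand of CCR3, read 8.09, 7.13, 7.75 and 7.91 in abdominal and 7.87, 6.87, 6.68 and 7.40 in back fat. CCL14 read 7.50, 8.08, 9.01 and 8.64 in abdominal and 5.74, 6.97, 8.46 and 8.07 in back fat, lowest in the Large White male in both. IL15, which sustains NK and memory T cells, read 8.70, 8.73, 9.05 and 8.01 in back fat and 8.36, 8.86, 7.69 and 6.95 in abdominal fat. TNFAIP6, a hyaluronan-binding protein of inflamed tissue, was not uniform and read 6.22, 5.83, 2.86 and 6.16 in back fat, with the Iberian female far below the other 3. CXCR4 was the member lower in both fats (-1.16 in abdominal and -1.77 in back fat).

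Between the 2 fats 0 members differed by 1 log2 unit in either direction by limma (0.0794% and 0.155% of all probes). At an unadjusted p under 0.05, with no limit on size, 11 members differed. No share of all probes is given beside that count, so it does not set the members apart. By adjusted p alone a probe annotated to several genes was higher in back fat (0.288% of all probes) and IL10, an anti-inflammatory interleukin, was lower (0.305% of all probes), at 4.37, 4.23, 4.24 and 4.84 in back fat and 4.72, 5.08, 4.95 and 5.59 in abdominal fat (difference -0.67 ± 0.157, SE, adjusted p = 0.02809). The limma call on IL10 was lost when the Large White male (adjusted p = 0.06128), the Large White female (adjusted p = 0.203) or the Iberian female (adjusted p = 0.09608) was left out.

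Among the muscles, biceps femoris had 8 higher (7.24% of all probes) and 5 lower (11.7%), and 4 of the higher passed every reporter control (4.24% of all probes). Diaphragm had 7 higher (6.81%) and 3 lower (6.96%). TNFRSF12A read 8.47, 8.65, 8.78 and 8.03 in biceps femoris and 7.0, 7.15, 7.33 and 7.66 in diaphragm, with no overlap (difference of diaphragm -1.20 ± 0.154, SE, adjusted p = 7.9e-08). IL13RA1, a receptor chain for IL-13 and IL-4, went the other way, at 6.49, 6.72, 7.38 and 7.27 in diaphragm and 5.73, 5.81, 5.75 and 5.35 in biceps femoris. Between the muscles 3 members were higher (4.09% of all probes) and 3 lower (0.911%) in diaphragm. The call on TNFSF10 (1.55, adjusted p = 0.002963) was lost without the Iberian male (1.10, adjusted p = 0.06966), whose diaphragm read 6.01 against 2.84 to 4.59 in the others.

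In brain, pineal gland and pituitary most members lay low. Olfactory bulb had 21 members lower (24.7%, against 5.81% of all probes) and 2 higher (8.73%), hypothalamus 14 lower (4.94%) and 5 higher (8.92%), and pineal gland 17 lower (5.17%) and 1 higher (7.87%). Adenohypophysis had 14 lower (4.79%) and 1 higher (6.19%), and neurohypophysis 5 lower (2.77%) and 2 higher (5.67%). Over the 5 tissues the median difference of the members lay between -0.36 and -0.45, and that of all probes between -0.06 and -0.14. The low values were not particular to them. The median of the members was -0.35 in thyroid gland, -0.32 in adrenal medulla and -0.23 in adrenal cortex. The T and NK cell list averaged 4.02 to 4.16 in the 5 tissues and 4.38 to 4.89 in fat and stomach. In thyroid gland it averaged 4.22, in adrenal medulla 4.28 and in adrenal cortex 4.41. The other leukocyte lists were not all low in the 5 tissues. The monocyte, macrophage and neutrophil list averaged 5.16 in hypothalamus and 5.09 in neurohypophysis, as against 5.09 in stomach, and the B and plasma cell list 5.43 in neurohypophysis and 5.30 in adenohypophysis, as against 4.85 in back fat. The part of these cells was not tested.

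A few members were high there. CXCL14, highest in ileum and stomach, was also higher in olfactory bulb, at 9.70, 9.64, 9.89 and 9.40, and in hypothalamus, at 10.28, 10.65, 10.09 and 9.61, while it read 4.80, 4.12, 3.53 and 3.54 in adenohypophysis. IL34, a ligand of the CSF1 receptor that maintains microglia, read 7.99, 8.16, 7.66 and 7.65 in hypothalamus, above all 60 other arrays by 0.08 (difference 1.76, adjusted p = 2.5e-13). It was next highest in neurohypophysis and olfactory bulb. CXCR4 was high in adenohypophysis at 9.32, 9.42, 9.23 and 9.56 and in pineal gland at 9.38, 8.84, 9.32 and 9.51, overlapping in both with its arrays of blood and ileum.

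Neurohypophysis was the highest tissue for TNFSF13, the plasma cell survival factor APRIL, at 7.95, 8.57, 7.82 and 7.97, with no other array above 7.52 (difference 2.12, adjusted p = 9.3e-17). Compared with it, adenohypophysis had 9 members lower (10.6%, against 4.3% of all probes) and 1 higher (2.82%). CCL2 read 8.40, 7.57, 8.71 and 8.79 in neurohypophysis and 4.93, 4.96, 5.30 and 6.11 in adenohypophysis, without overlap. CXCL14 differed by -3.68 (adjusted p = 3.6e-07), although its neurohypophysis values were scattered, the lowest being 5.04 (Large White male) and the highest 9.97 (Iberian female).

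Ligands and receptors were set side by side for 30 listed pairs, of which 13 had probes for both. Ligand and receptor had the same highest tissue in 3 of them. These were CCL25 with CCR9 in ileum, and IL6 with IL6R and TNF with TNFRSF1B in blood. Over the 16 tissue means, which share animals and arrays, CCL25 and CCR9 had a Pearson correlation of 0.82 and a Spearman correlation of 0.69. Without blood, where only the receptor was high, these were 0.98 and 0.62. The Pearson correlation was above 0 in 9 of the 13 pairs. Among them were IL6 with IL6R (0.76, and 0.54 without blood) and TNF with TNFRSF1B (0.71, and 0.49 without blood). IL4 with IL4R had 0.57, and 0.35 without blood, and IL7 with IL7R had 0.53, and 0.67 without blood. The rise of IL6 and IL4 in blood stayed within the range of the reporter controls. The Pearson correlation was below 0 in 4 pairs with blood and in 2 without it. CXCL12 with CXCR4 had -0.40, and -0.25 without blood, and IL1B with IL1R1 had -0.44, and -0.51 without blood. CCL2 with CCR2 had -0.32 and turned to 0.30 without blood, and CCL19 with CCR7 had -0.05 and turned to 0.26. For CCL19 and CCL21, both highest in ileum, the receptor CCR7 was highest in blood and read 4.59 on average in ileum.

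In the RefSeq annotation of assembly Sscrofa11.1, 26 of the member genes fall into 9 groups of genes with at most 10 genes between neighbours. In 4 of the 9 groups all genes had the same highest tissue. Of a group of 5 receptor genes, CCR9 and CXCR6 were highest in ileum and CCR1, CCR3 and CCR2 in blood. In a group of 4 CC chemokines CCL4 was highest in blood, CCL3L1 in liver, CCL14 in abdominal fat and CCL5 in ileum. IL5, IL13 and IL4 were all highest in blood, by differences within the range of the reporter controls. CCL3L1 belongs to a set of near-identical gene copies, and its probe may read more than a single copy.

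Probes of the same gene did not always agree on the tissue. Of 13 further probes, 8 had another highest tissue than the brightest probe. CXCL14 (probe 2) was merely highest in stomach instead of ileum and followed the brightest probe at r = 0.99 over tissue means, and CXCL12 (probe 2) was highest in back fat (r = 0.82). For IL17B (probe 3), IL1R1 (probe 2), TNFSF13 (probe 2) and TNFAIP8L2 (probe 2) the correlation was 0.21, 0.13, 0.04 and -0.26, and the tissue of these genes depended on the probe.

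Sex was compared with z-scores, here the male minus female difference of means over the 16 tissues divided by its spread over all probes, which place a probe among all probes and do not measure the error between animals. With 2 animals of each sex an exact two-sided permutation test cannot go below 0.333. CXCL9 was higher in males by 1.21 (z = 7.80, adjusted p = 6.5e-12, higher in 15 of 16 tissues) and CCL2 by 0.80 (z = 5.18, adjusted p = 1.1e-04, higher in 16 of 16 tissues). They were the 2 members past the threshold, against 0.238% of all probes higher in males, and 0 members were lower (0.155% of all probes). At an unadjusted p under 0.05 there were 3 of 85 members in either direction, against 1.56% of all probes. Leaving out either the Iberian female or the Iberian male left the sex difference to the Large White pair alone. These runs were a single comparison, which gave 0 members and cannot show which Iberian animal mattered. Limma on the means of the 4 animals also gave 0 members (adjusted p = 0.9995 for both genes).

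Between breeds 4 members were lower in Large White than in Iberian animals by z-score (0.614% of all probes lower) and 0 higher (0.389%). The 4 were CCL8, a monocyte attractant (-0.91, adjusted p = 2.7e-05), TNFSF10 (-0.81, adjusted p = 4.4e-04), CXCL9 (-0.76, adjusted p = 0.001596) and CCL14 (-0.66, adjusted p = 0.01296). At an unadjusted p under 0.05 there were 10 of 85 members in either direction, against 4.19% of all probes. CCL8 was higher in Large White in 1 of 16 tissues. CCL2 missed the threshold (-0.59, adjusted p = 0.05005). Without the Large White male, or without the Iberian male, the breed difference came from the females alone. These runs were a single comparison, in which 0 members passed and which cannot show which male mattered. With limma on the means of the 4 animals 0 members passed too.

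The arrays showed which animal carried these values. CXCL9 averaged 6.29, 5.71, 5.83 and 7.68 over the 16 tissues, and the Iberian male was highest in 11 of them. In hypothalamus it read 4.70, 3.67, 4.69 and 9.96, in olfactory bulb 4.80, 4.43, 4.88 and 8.68, and in pineal gland 4.61, 4.32, 5.34 and 8.28. In the first of these the Iberian male lay 5.25 above the nearest other animal, and its hypothalamus was close to the ileum level of the gene. In ileum and blood the 4 animals lay together.

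CCL2 and CCL8 followed in the same tissues of the same animal. CCL2 read 4.98, 5.11, 5.31 and 8.21 in hypothalamus and 4.80, 4.38, 4.50 and 7.10 in olfactory bulb. CCL8 read 4.42, 4.59, 5.71 and 7.97 in hypothalamus and 3.89, 3.88, 4.42 and 6.54 in olfactory bulb. CCL5 (5.50, 5.09, 5.28 and 6.83) and CXCL16 (5.29, 5.59, 5.60 and 7.32) also set the Iberian male apart in hypothalamus. In all, its hypothalamus had 7 members at least 1 log2 unit above the other 3 arrays (8.2%, against 0.861% of all probes), all of them chemokine probes. This count and the next were made after the arrays were seen.

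**Figure D5:**
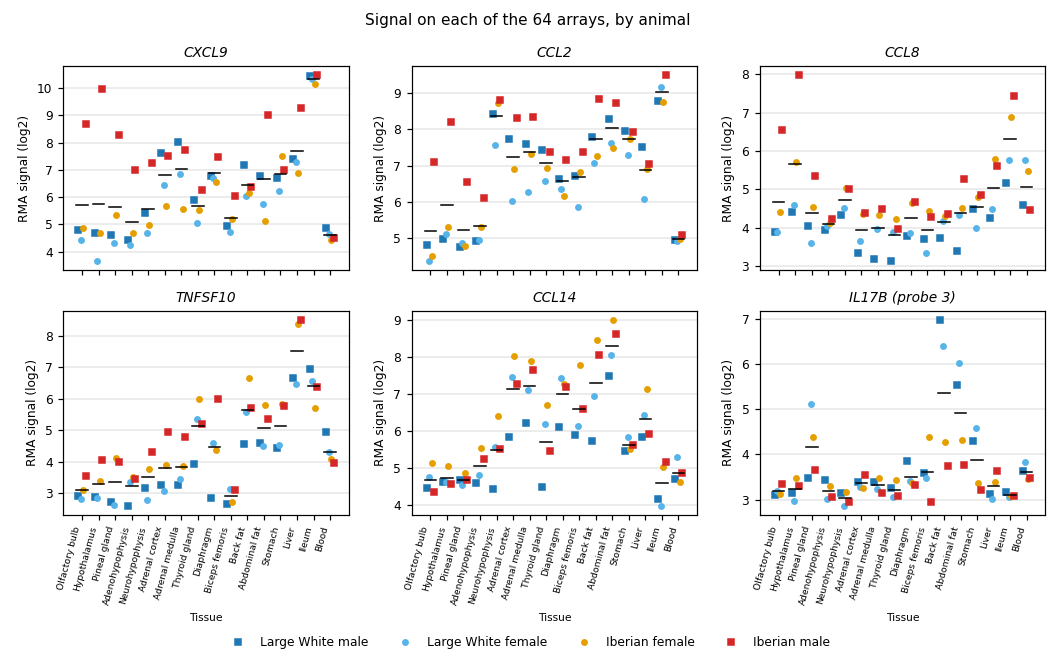
RMA signal (log2) of 5 genes and a further IL17B probe on each of the 64 arrays, by tissue; symbols give the animal and the bar the mean of 4 arrays. The Iberian male lies far above the other animals for CXCL9, CCL2 and CCL8 in olfactory bulb and hypothalamus, and IL17B (probe 3) is high in both fats of the Large White animals.

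Abdominal fat of the Iberian male showed a different set of 8 members (9.4%, against 0.51% of all probes). CXCL13 read 4.65, 4.46, 4.64 and 7.06 and its probe 2 read 2.53, 2.21, 2.31 and 6.88. IL18 (5.58, 5.17, 5.64 and 7.45), IL16 (6.09, 6.17, 6.33 and 7.61) and IL2RG (5.21, 5.57, 5.35 and 6.69) were high in that array too, as were CXCL9, CXCL12 and CCL21. On the same array the 3 B and plasma cell probes averaged 7.09, against 4.76 to 4.81 in the other 3 animals, and the 19 T and NK cell probes 5.05 against 4.32 to 4.61. The 20 monocyte, macrophage and neutrophil probes averaged 5.93 against 5.46 to 5.53. In hypothalamus these 3 lists averaged 6.54 against 4.66 to 5.02, 4.63 against 3.98 to 4.02 and 5.61 against 4.96 to 5.04. In olfactory bulb they averaged 5.58 against 4.15 to 4.64, 4.27 against 3.92 to 4.08 and 4.97 against 4.58 to 4.69. Their part in the chemokine values was not tested. Over all tissues the Iberian male stood at least 1 log2 unit above the others in 29 combinations of member and tissue (2.13%, against 0.26% over all probes), and each of the other animals in at most 8 (0.59%).

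TNFSF10 and CCL14 had other patterns. TNFSF10 averaged 3.90, 4.13, 4.70 and 4.94, both Iberian animals above both Large White animals. CCL14 averaged 5.31, 5.96, 6.54 and 6.06, with the Iberian female highest in 12 tissues and the Large White male lowest in 11. Of the 19 T and NK cell probes 2 were higher in males by z-score, and the list median was 0.10. They were CD8A (0.66, adjusted p = 0.006726) and GZMH (0.62, adjusted p = 0.01632), both of cytotoxic T cells. Of the 20 monocyte, macrophage and neutrophil probes 1 was lower in Large White, and the list median was -0.08. It was the complement gene C1QA of macrophages (-0.68, adjusted p = 0.008992). As for the members, these z-scores do not measure the error between animals.

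The breed difference varied between tissues for 2 of 85 members in limma's interaction test, near the share of all probes (2.08%). The test had 2 animals per breed and treated the arrays of an animal as independent. IL17B (probe 3) read 6.97, 6.39, 4.28 and 3.75 in back fat and 5.54, 6.03, 4.32 and 3.77 in abdominal fat, both Large White animals above both Iberian ones, with differences of 2.67 and 1.74 (adjusted p = 1.0e-03). The other 2 probes of IL17B did not pass. CXCL12 (probe 2) was higher in Large White by 1.20 in abdominal fat, at 8.51, 8.98, 7.21 and 7.88, and lower by 1.08 in pineal gland (adjusted p = 0.03702).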

How the data were processed

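Total RNA from 16 tissues of 4 pigs was hybridised to 64 arrays. The authors read the arrays with GCOS, normalized all of them together by RMA with libaffy and deposited log2 values per probe set (versions not given in the sources used here). Of 24123 deposited probe sets, 188 controls were left out. Symbols came from the platform annotation: 10069 probes had 1 symbol, 198 several and 13668 none. The members and lists were chosen with earlier results of these data known.

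The deposited log2 values were fitted with tissue, breed and sex in limma 3.58.1 (R 4.3.3), with Benjamini-Hochberg adjustment over 23935 probes. Sex and breed z-scores were adapted from the methods of the study: differences of means, divided by their SD over all probes, stood in for the predictions of its mixed models, so that the scores and their normal p-values are not those of the study. The z-scores and summaries were computed in Python 3.11.15 (numpy 2.4.6, pandas 2.3.3, scipy 1.17.1, matplotlib 3.10.9). Levels were compared between probes in choosing a gene's brightest probe and in filters on level, and not between genes as a result. The named genes were, by rule, the members with the largest differences in each comparison, the extreme members and those past a z threshold. Genes set apart by a single animal's arrays were added after their values were seen. Arrays carry the animal in their labels: residuals of the same animal correlated by 0.189 on average (480 pairs) and of different animals by -0.0629 (1440 pairs). Tested on simulated data for ileum, over 23935 probes, the fit found 42%, 92% and 100% of shifts of 0.5, 1 and 2 log2 units and called 0.025% of unshifted probes. The simulated errors were independent between arrays, without animal effects or differences among the other tissues, so these rates need not hold for the real arrays. The alternatives were another scale, filter, normalization, variance model, the animal as a block, and arrays or animals left out.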

Additional observations from a re-analysis of the deposited data

Results flagged for a closer look

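Of 223 sets of 4 arrays checked, 18 held an array far from the other 3. Chance flags about 1 in 20 sets, but some of these were added because an array had been seen to stand apart, so the count cannot be read against that rate. The Iberian male was that array, and the highest, in 13 of them. In hypothalamus it read 9.96 for CXCL9 (others 3.67 to 4.70), 8.21 for CCL2 (4.98 to 5.31), 7.32 for CXCL16 (5.29 to 5.60) and 3.56 for CXCL13 (probe 2) (2.27 to 2.40). In olfactory bulb it read 8.68 for CXCL9 (4.43 to 4.88) and 7.10 for CCL2 (4.38 to 4.80), in pineal gland 6.55 for CCL2 (4.74 to 4.86) and in adenohypophysis 7.0 for CXCL9 (4.25 to 4.70). In abdominal fat it read 7.06 for CXCL13 (4.46 to 4.65), 6.88 for its probe 2 (2.21 to 2.53), 9.29 for CXCL12 (7.68 to 7.85) and 7.61 for IL16 (6.09 to 6.33), and in liver 7.79 for CCL4 (6.41 to 6.5).

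The Iberian female was apart in back fat, lowest for TNFAIP6 at 2.86 (5.83 to 6.22), and in hypothalamus, highest for CCL14 at 5.06 (4.57 to 4.65). The Large White female was highest for CXCL16 in liver at 9.06 (8.71 to 8.73) and lowest for IL18BP in ileum at 7.73 (8.28 to 8.37). The Large White male was highest for CXCL14 in pineal gland at 9.23 (6.84 to 6.99), on an array that stood apart over all probes.

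Limma's interaction test, which treated the arrays of an animal as independent, called a breed difference that varied between tissues for 2 members. They were IL17B (probe 3) (adjusted p = 1.0e-03) and CXCL12 (probe 2) (adjusted p = 0.03702).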

How the results depend on the processing

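Of 89 differences of named genes between tissues, 84 kept their direction and call under every alternative run, and none was reversed. IL18 in pineal gland (0.98) was 0.64 without the Large White female and 0.37 without the Iberian male, with adjusted p of 0.1693 and 0.3248. IL34 in pineal gland (0.42) was 0.12 without the Large White male and 0.13 without the 3 arrays that stood apart. TNFAIP8 in adenohypophysis was lost without either Large White animal (0.39 and 0.42), and IL10 between the fats and TNFSF10 between the muscles as given above. The cause was not tested.

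With the animal as a replicate block no call on the 89 changed. Calls on the members were also summed over the 16 tissues by adjusted p alone, so that a member can count in several tissues. There were 315 higher and 467 lower calls with the block, and 314 and 463 without it.

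Restricting to the 35 members above the median level left 35 variable members, and 8 higher and 17 lower in blood than ileum (35 and 28 with all). Summed over the tissues there were 173 higher and 223 lower calls. Summed over the pairs of like tissues there were 13 higher and 35 lower calls (23 and 71 with all). Also left were 2 members lower in Large White, 1 with interaction and 14 set apart by all arrays. These counts follow from fewer members being tested. A margin of 0.5 log2 units left 15 of the 36 set apart. Past every reporter control 5 were higher in blood than ileum.

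Members higher in males numbered 0 with limma on the means of 4 animals. When an animal was left out they numbered 0 to 2, from the pair of a single breed. Members lower in males numbered 1 with arrays as replicates and 1 without blood. Among all probes 348 and 95 were called in these 2 runs, in either direction. With arrays as replicates 6 members were higher and 14 lower in Large White, with the means of 4 animals 0 were lower, and leaving out an animal gave 0 to 5. The interaction was called for 1 member without the 3 arrays that stood apart and for 1 to 7 without an animal. The number of arrays, with signal near background for many interleukins, limits what could be seen.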
